A study of Homo sapiens with 18 samples.

Results

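MHC class II genes and CIITA were described across 2 lymphoma cell lines and 3 dose groups. The set holds 10 genes, taken by gene symbol from the deposited tables of 23686 genes: CIITA, CD74, HLA-DRA, HLA-DRB1, HLA-DPA1, HLA-DPB1, HLA-DQA1, HLA-DQB1, HLA-DMA and HLA-DMB. All 10 symbols were found in the tables of both lines. RNA was sequenced from OCI-Ly1 and TMD8, established lines from human diffuse large B-cell lymphoma; OCI-Ly1 is used as a germinal-centre B-cell-like model and TMD8 as an activated B-cell-like one. Each line was given JIB-04, a small-molecule inhibitor of Jumonji-domain histone demethylases, at 150 nM or 500 nM, or 0.01% DMSO in its place, and each of the 6 groups has 3 libraries. OCI-Ly1 grew in IMDM and TMD8 in RPMI 1640, so the line and its medium cannot be told apart. The duration of treatment is not given in the labels. The libraries are described as technical triplicates, so every p-value here measures the spread between libraries and may not cover the spread between cultures.

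MHC class II molecules present peptides from the endosomal pathway to CD4+ T cells, and B cells make them constitutively. HLA-DR, HLA-DP and HLA-DQ are surface heterodimers, each of an alpha and a beta chain. CD74, the invariant chain, occupies their groove during assembly, and HLA-DM (HLA-DMA with HLA-DMB) exchanges the remaining fragment for peptide. CIITA is a transcriptional coactivator that carries no DNA-binding specificity of its own. It is recruited to class II, CD74 and HLA-DM promoters by RFX, CREB and NF-Y factors on the X and Y boxes, and its loss in B-cell lymphoma is a known route to absent class II.

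The X and Y boxes are shown here because the members split, in OCI-Ly1, into genes with and without transcripts. RefSeq promoter windows (GRCh38.p14, 250 bases before to 50 bases after each start) were matched for 8 of the 10 members, of which HLA-DPA1 has windows at separate starts. The fixed Y box core, GATTGG on either strand, was in a window of 5 of these 8 members (HLA-DRB1, HLA-DPB1, HLA-DQB1, HLA-DMA and HLA-DMB) and in 15.1% of all 35116 windows. The X1 box piece GCAAC, on either strand, was in 3 of 8 members and 33.6% of all windows. The X2 box core, TGCGTCA or TGACGT on either strand, was in 2 of 8 members and 10.2% of all windows. An arrangement chosen after the sequences were read, AGNNAC 30 to 38 bases before ATTGG on the gene's strand, was in HLA-DRB1, HLA-DQA1, HLA-DQB1 and HLA-DMA (4 of 8 members), and in 0.743% of all windows. ATTGG is part of the Y box core GATTGG, and AGNNAC can overlap GCAAC. In HLA-DPB1 and HLA-DQA1 the marked ATTGG does not follow a G, so it is not the fixed core. The core counted for HLA-DPB1 lies 75 bases before its start, outside the stretch shown, and the HLA-DQA1 window has none. Capitals mark ATTGG and, where the arrangement is present, AGNNAC; each stretch of 48 bases lies wholly before the gene's start and is written 5′ to 3′ on the gene's strand.
HLA-DRB1, chr6:32589887-32589934, minus strand: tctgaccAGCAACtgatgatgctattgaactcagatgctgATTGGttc
HLA-DRB5, chr6:32530370-32530417, minus strand: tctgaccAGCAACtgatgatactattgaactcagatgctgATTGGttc
HLA-DQA1, chr6:32637298-32637345, plus strand: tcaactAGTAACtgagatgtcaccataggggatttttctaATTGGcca
HLA-DQB1, chr6:32666738-32666785, minus strand: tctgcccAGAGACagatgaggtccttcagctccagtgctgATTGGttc
HLA-DPB1, chr6:33075851-33075898, plus strand: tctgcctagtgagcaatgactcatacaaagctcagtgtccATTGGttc
HLA-DMA, chr6:32953169-32953216, minus strand: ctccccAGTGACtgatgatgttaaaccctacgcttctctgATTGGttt
HLA-DOA, chr6:33009651-33009698, minus strand: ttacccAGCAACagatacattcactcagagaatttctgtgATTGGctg
HLA-DOB, chr6:32817093-32817140, minus strand: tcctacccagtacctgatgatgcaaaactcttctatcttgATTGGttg
The HLA-DRB1 and HLA-DRB5 stretches differ at 1 of 48 bases. HLA-DOA and HLA-DOB, the chains of the HLA-DM modulator HLA-DO, are not members and are shown as genes of the same region that OCI-Ly1 transcribed. These are reference letters; the alleles of the 2 lines were not read here, and a match is not a measured binding site.

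Both lines carried the B-cell programme of their labels: 5 of 5 B-cell markers (MS4A1, CD79A, CD79B, PAX5 and CD22) were above the floor in every group. Their summed level ran from 1220 to 1270 CPM (counts scaled by library size and TMM factor) with DMSO and from 1050 to 1080 at 500 nM in OCI-Ly1. In TMD8 the sum ran from 2660 to 2830 with DMSO and from 2230 to 2280 at 500 nM. The summed levels of the 4 T-cell, 5 myeloid and 3 NK-cell markers were at most 29.4 CPM in any library, and the 3 dendritic-cell markers at most 46.3, where CLEC9A and CLEC10A were at the floor. The T-cell sum went from between 18.8 and 22.5 CPM to between 8.40 and 9.42 CPM at 500 nM in OCI-Ly1. With DMSO, 4 germinal-centre-type markers summed to between 638 and 665 CPM in OCI-Ly1 and between 105 and 112 CPM in TMD8, and 4 activated-type markers to between 395 and 412 CPM and between 4190 and 4520 CPM; LMO2, of the first list, was at the floor in OCI-Ly1. From DMSO to 500 nM the activated-type sum went to between 641 and 679 CPM in OCI-Ly1 and between 2920 and 2960 CPM in TMD8. The sum of 4 plasma-cell markers went in TMD8 from between 413 and 446 CPM to between 506 and 524 CPM. There 4 of 4 were called higher, beside 29.9% of all genes. Most of this sum was PRDM1, which went from 382 to 432 CPM but was -0.194 on log2(TPM + 1), a scale described further on. The part of these shifts in the members' changes was not tested. Library totals were 17579732 to 32651115 estimated counts in OCI-Ly1 and 9550092 to 20509500 in TMD8. A gene with at most 3 counts in each library of a group was taken as at the floor, which is 0.0894 to 0.176 CPM in OCI-Ly1 and 0.149 to 0.307 CPM in TMD8, and no fold was computed against it. In bulk RNA, fewer cells making a transcript and less of it per cell cannot be told apart.

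With DMSO alone, TMD8 transcribed all 10 members, whereas OCI-Ly1 transcribed CIITA, CD74 and both HLA-DM genes but almost none of the HLA-DR, HLA-DP and HLA-DQ chains. The DR beta genes HLA-DRB3 and HLA-DRB4 were not among the deposited genes and could not be counted. The estimated counts of HLA-DR, HLA-DP and HLA-DQ genes (7 genes, HLA-DRB5 included) summed to 6, 7 and 5 in the OCI-Ly1 DMSO libraries. The same sum was 13015, 13742 and 15356 in TMD8. HLA-DRB1, HLA-DPB1 and HLA-DQA1 had 0 counts in all 9 OCI-Ly1 libraries. HLA-DPA1 had 1 count in 1 OCI-Ly1 library, at 500 nM, and HLA-DQB1 had at most 3 counts in any. HLA-DRA had 6, 4 and 3 counts with DMSO.

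Where OCI-Ly1 was at the floor, the difference between untreated lines is a lower bound, taken from the lowest TMD8 library and 3 counts per OCI-Ly1 library. HLA-DPA1 was at least 742-fold lower in OCI-Ly1, HLA-DPB1 at least 342-fold, HLA-DRB1 at least 274-fold, HLA-DQA1 at least 76.9-fold and HLA-DQB1 at least 5.41-fold. The bound for HLA-DQB1 is small because this gene was low in TMD8 as well, with 17 to 30.9 counts. The other 5 members were compared in 1 fit of all 18 libraries by edgeR's quasi-likelihood test with Benjamini-Hochberg adjustment. All 5 were lower in OCI-Ly1, against 76.7% of the 16604 tested genes called in either direction and 39.0% called lower. HLA-DRA was lower by a log2 difference of -11.39 (SE 0.168). The filter kept HLA-DRA through groups where it was high, and it had 6, 4 and 3 counts in OCI-Ly1 with DMSO. Its call, 1 of the 5, therefore describes where it was high. All 25 alternatives for HLA-DRA, no filter on low counts among them, kept the direction and the call. CD74 was 8.45-fold lower (log2 -3.08, SE 0.0622, adjusted p = 2.1e-25). CIITA itself was 2.65-fold lower (log2 -1.404, SE 0.0608, adjusted p = 7e-18). HLA-DMA was 3.39-fold lower and HLA-DMB 3.65-fold lower, with adjusted p = 6.3e-16 and 9.1e-15. Thus the coactivator, the invariant chain and HLA-DM differed by 2.65-fold to 8.45-fold between lines, and the bounds for HLA-DPA1, HLA-DPB1, HLA-DRB1 and HLA-DQA1 lay above that range.

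**Figure D1:**
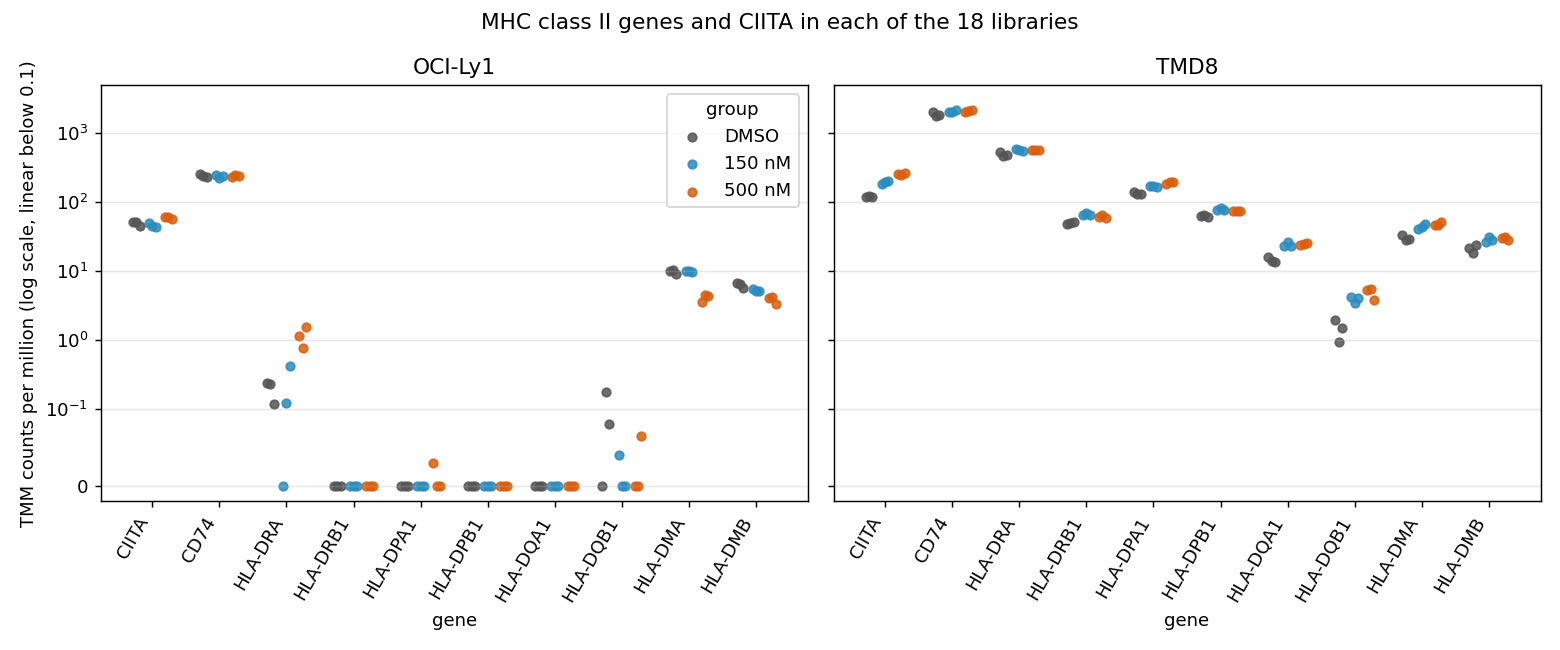
Level of each member in each of the 18 libraries, as CPM (vertical axis, logarithmic above 0.1 and linear below), by gene (horizontal axis) and dose group (colour). OCI-Ly1 (left) has CIITA, CD74, HLA-DMA and HLA-DMB well above 1, HLA-DRA between 0 and 1.55, and the other members at or near 0, while TMD8 (right) has every member above 0.9.

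Levels of different genes can be set side by side only per transcript length, which TPM gives. In TMD8 with DMSO the order was CD74 with 971 ± 149 TPM (SD, n = 3), HLA-DRA with 304 ± 45.2, HLA-DPA1 with 61.1 ± 8.11, HLA-DRB1 with 33.5 ± 1.65 and HLA-DMA with 22.1 ± 4.07. CIITA followed with 18.5 ± 1.47 TPM, HLA-DMB with 11.9 ± 1.70, HLA-DPB1 with 11.2 ± 1.17, HLA-DQA1 with 7.37 ± 1.35 and HLA-DQB1 with 0.698 ± 0.289. The libraries of HLA-DMA and CIITA overlapped, as did those of HLA-DMB and HLA-DPB1. In OCI-Ly1 with DMSO the order was CD74 with 224 ± 10.0 TPM, CIITA with 13.6 ± 0.628, HLA-DMA with 12.6 ± 0.644, HLA-DMB with 6.35 ± 0.465 and HLA-DRA with 0.217 ± 0.0694. The libraries of CIITA and HLA-DMA overlapped there too. CIITA in OCI-Ly1 therefore ranked beside HLA-DMA, as in TMD8, while HLA-DRA ranked last among the members above the floor.

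The listed genes of the class II region on chromosome 6 were set in order of their RefSeq starts. HLA-DRA, HLA-DRB5, HLA-DRB6, HLA-DRB1, HLA-DQA1, HLA-DQB1, HLA-DQA2 and HLA-DQB2 follow each other in that order, and none of these averaged above the 0.198 CPM of HLA-DRA in untreated OCI-Ly1. The next genes in the order were transcribed in OCI-Ly1 with DMSO: HLA-DOB at 5.12 CPM, the peptide transporter gene TAP2 at 125 CPM, the immunoproteasome gene PSMB8 at 83.7 CPM, TAP1 at 51.9 CPM and PSMB9 at 43.9 CPM. HLA-DMB at 6.35 CPM, HLA-DMA at 9.82 CPM, BRD2 at 367 CPM and HLA-DOA at 6.33 CPM came after them. HLA-DPA1 and HLA-DPB1 follow, both with 0 counts, and then RXRB at 40.2 CPM. Among the listed genes, the transcribed stretch from HLA-DOB to HLA-DOA thus had class II genes at or near the floor on both sides. HLA-DOB was higher in OCI-Ly1 than in TMD8, at 2.53 CPM there (log2 0.88, SE 0.179, adjusted p = 7.4e-05 by edgeR in the fit of both lines). CIITA lies on chromosome 16 and CD74 on chromosome 5. Whether the OCI-Ly1 genome holds intact copies of the genes at 0 was not analysed here, and reads of an allele far from the reference transcripts could be lost in counting; their part in the zeros was not tested.

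In TMD8, 9 of the 10 members were higher and 0 lower at 150 nM JIB-04 than with DMSO, against 44.2% of 15363 tested genes called and 19.2% called higher. The exception was CD74, which had an adjusted p of 0.051 at this dose. At 500 nM all 10 members were higher, against 60.7% of genes called, 29.9% higher and 30.7% lower. That count of 10 was 3 on log2(TPM + 1), the scale described after the members. Across members the log2 fold change had a median of 0.41 at the lower dose and 0.50 at the higher, beside 0.01 and 0.04 over all tested genes. The groups did not overlap in 9 of 10 members at 150 nM, where 51.4% of all genes did not overlap, and in 10 of 10 at 500 nM, where 66.4% did not. Unadjusted p was under 0.05 for 10 of 10 members at each dose by edgeR. The share of all genes under that unadjusted threshold is not given here. DESeq2 called 10 of 10 members at each dose. Of all 15363 genes it called 2441 higher and 3271 lower at 150 nM, and 3963 higher and 4470 lower at 500 nM.

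In CPM, CIITA rose with each dose in TMD8, as did HLA-DPA1, given below. Its TMD8 levels were 119, 123 and 119 CPM with DMSO, 185, 193 and 204 CPM at 150 nM, and 257, 249 and 262 CPM at 500 nM. The 3 groups were fully separate. The change was 1.61-fold at 150 nM (log2 0.69, SE 0.0484, adjusted p = 1.1e-08) and 2.13-fold at 500 nM (log2 1.09, SE 0.0486, adjusted p = 4.5e-12, edgeR). CIITA was also higher at 500 nM than at 150 nM (log2 0.40, SE 0.0476, adjusted p = 1.1e-05), a step that missed the threshold on log2(TPM + 1), at 0.17 with adjusted p = 0.18.

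Among the surface chains, HLA-DQB1 changed by the largest fold from the lowest level. It had 1.97, 0.953 and 1.51 CPM with DMSO, 4.21, 3.52 and 4.17 CPM at 150 nM, and 5.34, 5.46 and 3.79 CPM at 500 nM. Every treated library was above every DMSO library, and the treated groups overlapped with each other. The change was 2.71-fold at 150 nM (log2 1.44, SE 0.231, adjusted p = 7.5e-05) and 3.36-fold at 500 nM (log2 1.75, SE 0.231, adjusted p = 3.4e-06, edgeR). These levels rest on 17 to 83.9 estimated counts a library. Its partner HLA-DQA1, the alpha chain of HLA-DQ, rose from 13.5 to 16.3 CPM with DMSO to between 22.9 and 26.7 CPM at 150 nM and between 23.9 and 26.0 CPM at 500 nM. That is 1.66-fold and 1.69-fold (log2 0.73, SE 0.0854, and log2 0.76, SE 0.0877).

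HLA-DRA, the shared alpha chain of HLA-DR, was the most abundant surface chain and moved little. It had 529, 471 and 478 CPM with DMSO, 587, 581 and 548 CPM at 150 nM, and 569, 567 and 580 CPM at 500 nM. All treated libraries were above all DMSO libraries, by 1.16-fold at each dose (log2 0.22, SE 0.0517 and 0.0519, adjusted p = 0.0026 and 0.0015 by edgeR), but on log2(TPM + 1) the 500 nM value was -0.156. HLA-DRB1, its main beta chain, went from 48.2 to 51.2 CPM with DMSO to between 64.6 and 68.7 CPM at 150 nM, which is 1.32-fold, and to between 58.9 and 65.3 CPM at 500 nM, which is 1.23-fold. On log2(TPM + 1) its 500 nM value was -0.07.

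The HLA-DP chains diverged at the higher dose. HLA-DPA1, the alpha chain, had 142, 131 and 131 CPM with DMSO, 171, 170 and 164 CPM at 150 nM, and 183, 197 and 195 CPM at 500 nM. It was 1.25-fold and 1.43-fold higher (log2 0.32, SE 0.0484, and log2 0.51, SE 0.0486), and higher at 500 nM than at 150 nM (log2 0.19, SE 0.0484, adjusted p = 0.0071 by edgeR), a step that was -0.0326 on log2(TPM + 1) and 0.125 with adjusted p = 0.089 on its centred form. HLA-DPB1, the beta chain, was 60.2 to 65.9 CPM with DMSO, 76.3 to 82.7 CPM at 150 nM and 74.1 to 75.0 CPM at 500 nM. It was 1.25-fold and 1.18-fold higher against DMSO (log2 0.32 and 0.24), and its 500 nM value on log2(TPM + 1) was -0.122. Within a library, where no scaling enters, the log2 ratio of HLA-DPA1 to HLA-DPB1 counts was 0.988 to 1.16 with DMSO, 1.04 to 1.13 at 150 nM and 1.29 to 1.39 at 500 nM. The 500 nM libraries stood above all the others in that ratio.

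The HLA-DM genes, which serve all the heterodimers, rose in TMD8 by the count test. HLA-DMA had 34.0, 28.5 and 29.0 CPM with DMSO, 41.4, 43.7 and 48.4 CPM at 150 nM, and 46.4, 47.5 and 51.1 CPM at 500 nM. It was 1.47-fold and 1.58-fold higher (log2 0.55, SE 0.0765, adjusted p = 1.7e-05; log2 0.66, SE 0.0777, adjusted p = 8.4e-07). HLA-DMB had 18.5 to 23.8 CPM with DMSO, 26.3 to 30.9 CPM at 150 nM and 28.0 to 31.4 CPM at 500 nM, and was higher by log2 0.42 and 0.48. Both DM genes had every treated library above every DMSO library in CPM. On log2(TPM + 1) the calls were lost for HLA-DMA at 500 nM (0.28, adjusted p = 0.062) and for HLA-DMB at 150 nM (0.252, adjusted p = 0.073) and 500 nM (0.106, adjusted p = 0.4).

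CD74 had 2022, 1794 and 1813 CPM with DMSO, 2012, 2035 and 2168 CPM at 150 nM, and 2041, 2119 and 2149 CPM at 500 nM in TMD8. The 150 nM group overlapped with DMSO, and the 500 nM group stood just above it. Its log2 fold change was 0.14 at 150 nM (SE 0.0571, adjusted p = 0.051) and 0.16 at 500 nM (SE 0.0572, adjusted p = 0.019 by edgeR), but -0.207 on log2(TPM + 1). The 500 nM call was lost without DMSO replicate 2 (adjusted p = 0.093), DMSO replicate 3 (0.078), 500 nM replicate 2 (0.067) or 500 nM replicate 3 (0.079). The 150 nM change was called without DMSO replicate 1 (log2 0.199, adjusted p = 0.0013) and without 150 nM replicate 1 (log2 0.161, adjusted p = 0.048).

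Between the doses in TMD8, 2 of 10 members were called, CIITA and HLA-DPA1, both higher at 500 nM, beside 28.7% of all genes. The other 8 had log2 differences from -0.09 (HLA-DRB1, SE 0.0558) to 0.31 (HLA-DQB1, SE 0.202). On log2(TPM + 1) the calls were others: HLA-DRB1 (-0.31, adjusted p = 0.017) and HLA-DPB1 (-0.276, adjusted p = 0.039) were lower at 500 nM.

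**Figure D2:**
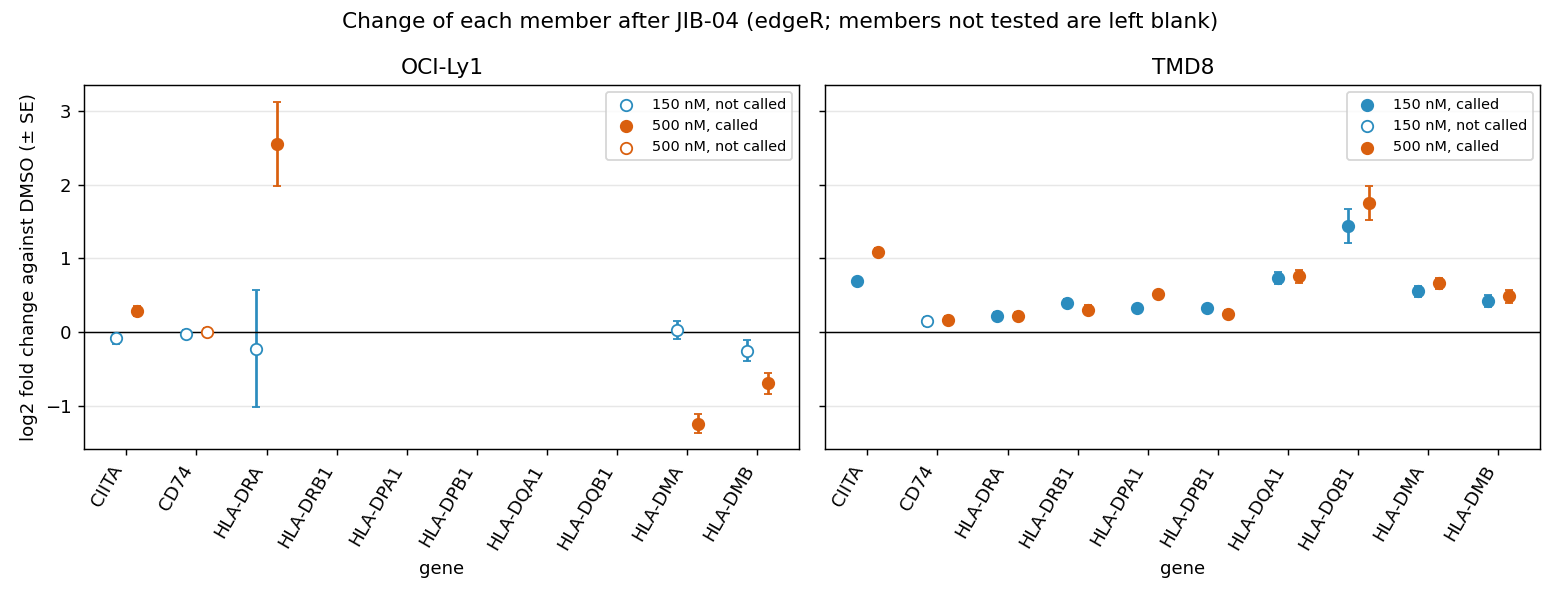
Log2 fold change of each member against DMSO (vertical axis, points with SE from edgeR) at 150 nM and 500 nM JIB-04, by gene (horizontal axis), filled where called at an adjusted p under 0.05. In TMD8 (right) every called member lies above 0 on this TMM scale, from 0.16 for CD74 to 1.75 for HLA-DQB1. There CD74, HLA-DRA, HLA-DRB1 and HLA-DPB1 turn below 0 at 500 nM on log2(TPM + 1). In OCI-Ly1 (left) the called members lie on both sides, from -1.24 for HLA-DMA to 2.56 for HLA-DRA. HLA-DRA passed the filter of that line only through its 500 nM libraries, so its filled point describes where it was high.

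The size of these rises, and for 4 members their sign, depended on how TMD8 libraries were scaled. The 10 genes with the most TPM held 54.3% to 62.1% of all TPM with DMSO and 71.2% to 74.3% at 500 nM, and the gene with the most TPM in each TMD8 library was MIR3687, from a ribosomal RNA locus. On log2(TPM + 1) the median of all tested genes was -0.219 at 500 nM, and 3 of 10 members were called (CIITA at 0.684, HLA-DQA1 at 0.342 and HLA-DQB1 at 0.70), all higher. Of all 15363 genes, 1751 were called higher and 7581 lower there. At 150 nM, 5 of 10 were called on it, all higher, beside 1129 genes higher and 4183 lower. With that scale centred on the median gene of each library, 8 of 10 were called at 500 nM, all higher, beside 5014 genes higher and 5357 lower. HLA-DRA (0.0975, adjusted p = 0.16) and CD74 (0.0469, adjusted p = 0.57) were not called. Under library-size scaling and under DESeq2 all 10 were higher at 500 nM, beside 5679 and 3963 of the 15363 genes. Ratios of counts within a library give the unequal change free of scale. CIITA over CD74 went from between -4.09 and -3.86 on the log2 scale with DMSO to between -3.45 and -3.40 at 150 nM and between -3.09 and -2.99 at 500 nM. CIITA over HLA-DRA went from between -2.15 and -1.93 to between -1.67 and -1.43 and then between -1.19 and -1.15. The groups did not overlap in either ratio, so CIITA rose relative to CD74 and HLA-DRA.

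**Figure D3:**
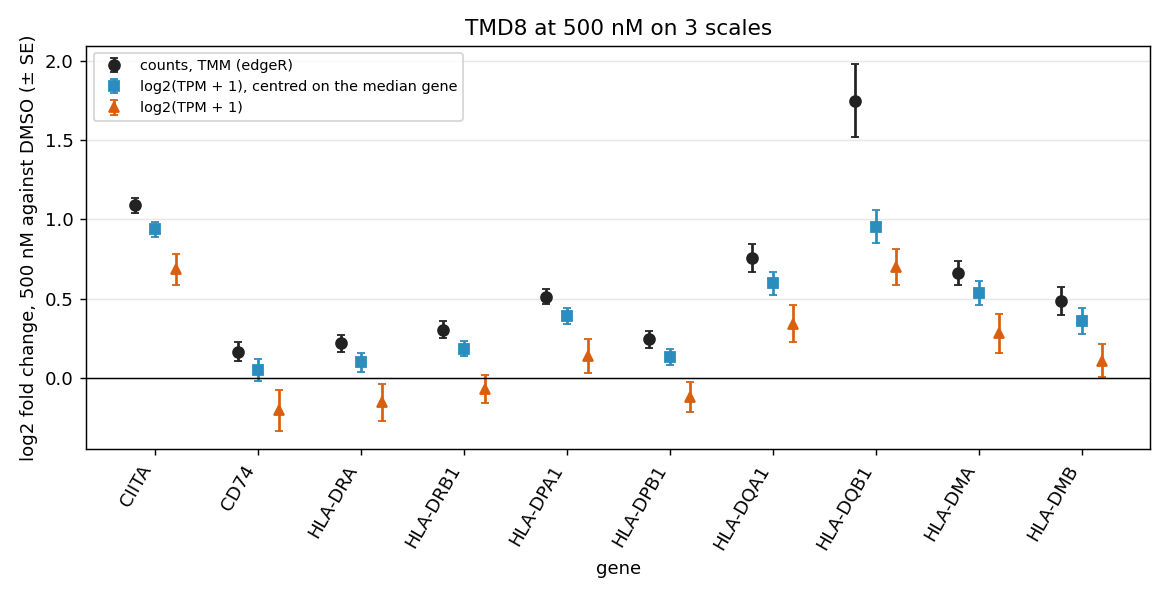
Log2 fold change of each member at 500 nM against DMSO in TMD8 (vertical axis, with SE) on 3 scales, by gene (horizontal axis). CIITA, HLA-DQA1 and HLA-DQB1 lie above 0 on every scale, whereas CD74 (-0.207), HLA-DRA (-0.156), HLA-DPB1 (-0.122) and HLA-DRB1 (-0.07) lie below 0 on log2(TPM + 1).

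In OCI-Ly1, 5 of the 10 members passed the filter on low counts. HLA-DRA passed only through its 500 nM libraries, so its call there describes where it was high. At 150 nM, edgeR called 0 of the 5, beside 0.889% of 15638 genes, and 0 had an unadjusted p under 0.05 (the lowest was 0.088). DESeq2 called 0 of the 5, and of all genes 192 higher and 50 lower. CIITA had 51.5, 51.5 and 45.6 CPM with DMSO and 50.6, 45.3 and 43.6 CPM at 150 nM, a log2 difference of -0.09 (SE 0.0713). HLA-DMA had a difference of 0.03 (SE 0.119), CD74 of -0.02 (SE 0.0535), HLA-DMB of -0.26 (SE 0.143) and HLA-DRA of -0.23 (SE 0.794).

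At 500 nM in OCI-Ly1, 2 members were higher (CIITA, and HLA-DRA with the limit just given) and 2 were lower (HLA-DMA and HLA-DMB), beside 53.6% of genes called, 27.7% higher and 25.9% lower. The groups did not overlap in these 4 of 5 members, where 60.7% of all genes did not overlap. CIITA reached 61.3, 61.0 and 58.0 CPM, above every DMSO and 150 nM library. Its rise was 1.21-fold (log2 0.28, SE 0.0697, adjusted p = 0.0026 by edgeR) and missed the threshold on centred log2(TPM + 1), at 0.168 with adjusted p = 0.057.

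HLA-DRA, the only member among the surface chains with enough counts to test in OCI-Ly1, had 39, 20 and 47 counts at 500 nM, against 6, 4 and 3 with DMSO and 0, 3 and 8 at 150 nM. In CPM these are 1.16, 0.775 and 1.55 at 500 nM, 0.238, 0.235 and 0.121 with DMSO, and 0, 0.124 and 0.426 at 150 nM. Every 500 nM library was above every other library. The fitted change was 5.88-fold (log2 2.56, SE 0.573), and 0.968 on log2(TPM + 1) and 0.742 on its centred form. Because the filter kept this gene through the group where it was high, the p to read is that of the edgeR fit with no filter on low counts (log2 2.54, adjusted p = 3e-05). The level reached, 1.16 ± 0.387 CPM (SD, n = 3), compares with 492 ± 31.5 CPM in untreated TMD8. Of its beta chains, HLA-DRB1 and HLA-DRB5 had 0 counts in the 3 libraries at 500 nM, and HLA-DRB3 and HLA-DRB4 were not among the deposited genes.

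The HLA-DM genes fell in OCI-Ly1 while CIITA rose. HLA-DMA had 10.1, 10.4 and 8.998 CPM with DMSO, 10.2, 9.99 and 9.84 CPM at 150 nM, and 3.61, 4.49 and 4.35 CPM at 500 nM. The 500 nM libraries were well below the others, by 2.37-fold against DMSO (log2 -1.24, SE 0.126, adjusted p = 2.4e-07 by edgeR). HLA-DMB had 6.86, 6.46 and 5.73 CPM with DMSO, 5.53, 5.12 and 5.27 CPM at 150 nM, and 4.17, 4.22 and 3.36 CPM at 500 nM. The 3 groups did not overlap, and the 500 nM group was 1.62-fold below DMSO (log2 -0.70, SE 0.143, adjusted p = 5.5e-04). CD74 had 255, 237 and 233 CPM with DMSO and 234, 252 and 240 CPM at 500 nM, with a log2 difference of 0.0022 (SE 0.0533). HLA-DOA, the alpha chain of HLA-DO, fell as well, from 5.97 to 6.87 CPM with DMSO to between 3.46 and 5.07 CPM at 500 nM (log2 -0.53, SE 0.154, adjusted p = 0.0076; -0.267 with adjusted p = 0.056 on log2(TPM + 1)). HLA-DOB, its beta chain, had a log2 difference of 0.24 (SE 0.149, adjusted p = 0.19).

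Between the doses in OCI-Ly1, 4 of 5 members were called, beside 46.2% of genes. HLA-DRA, among the 4, passed the filter only through its 500 nM libraries. Its call describes where it was high, and the count of 4 depends in part on that filter. CIITA (log2 0.37, SE 0.0698) and HLA-DRA (log2 2.78, SE 0.59; 4.15 without 150 nM replicate 3 and 2.13 without 150 nM replicate 1) were higher at 500 nM, and HLA-DMA (log2 -1.27, SE 0.126) and HLA-DMB (log2 -0.44, SE 0.145, adjusted p = 0.02) were lower. The HLA-DMB call was lost without 150 nM replicate 1 (log2 -0.415, adjusted p = 0.055) or 500 nM replicate 3 (log2 -0.339, adjusted p = 0.088).

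**Figure D4:**
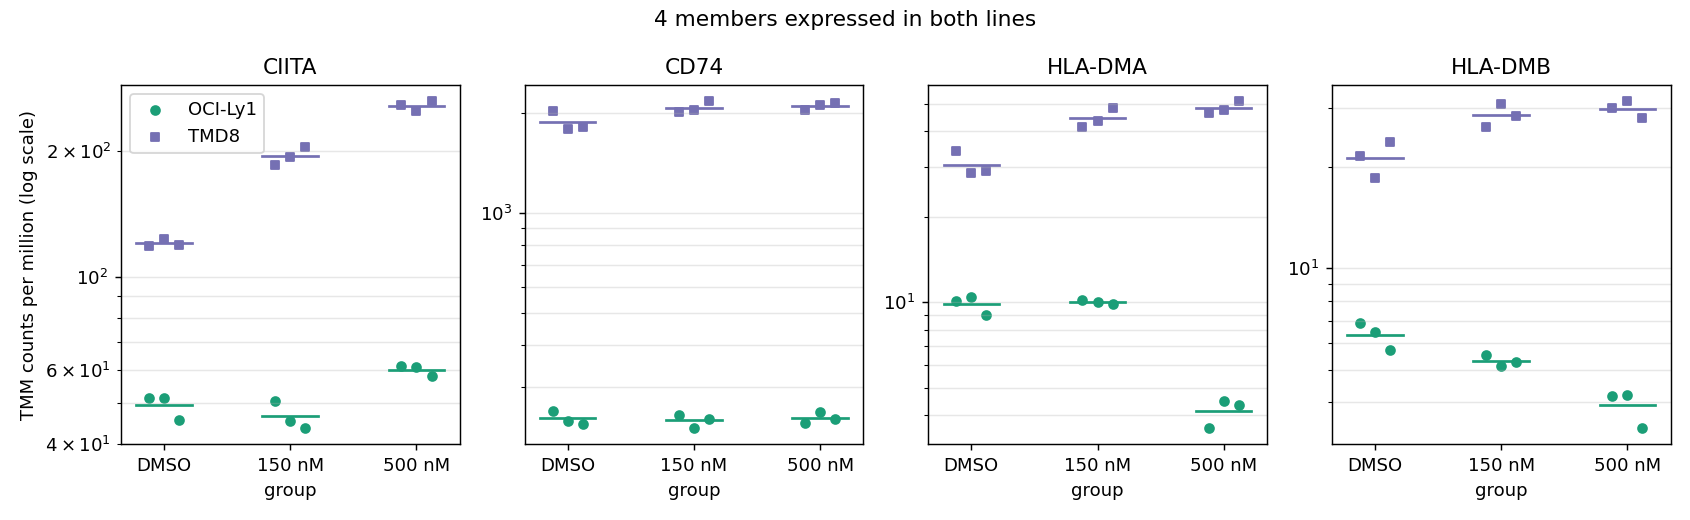
CPM (vertical axes, logarithmic, each panel with its own range) of the 4 members transcribed in both lines, by dose group (horizontal axis); points are libraries and short lines are means of 3. HLA-DMA and HLA-DMB are higher at 500 nM than with DMSO in TMD8 (from 30.5 to 48.3 and from 21.3 to 29.8 between DMSO and 500 nM) and lower in OCI-Ly1 (from 9.82 to 4.15 and from 6.35 to 3.92).

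The difference between lines was tested as the change in OCI-Ly1 minus the change in TMD8, in the fit of all 18 libraries. At 150 nM it was called for 3 of the 5 members above the floor, beside 23.3% of genes: CIITA, HLA-DMA and HLA-DMB, each less in OCI-Ly1; the HLA-DMA call was lost on log2(TPM + 1) (-0.317, adjusted p = 0.17). At 500 nM it was called for 4 of 5, beside 46.4% of genes. The difference for HLA-DMA at 500 nM was -1.88 (SE 0.138, adjusted p = 3.8e-11 by edgeR), and that for HLA-DMB was -1.15 (SE 0.161, adjusted p = 2.1e-06). For CIITA it was -0.78 (SE 0.0836, adjusted p = 3.5e-08), and for HLA-DRA it was 2.38 (SE 0.429, adjusted p = 5.9e-05), in the opposite sense and from a level near the floor. For CD74 it was -0.13 (SE 0.0816, adjusted p = 0.19), called without TMD8 DMSO replicate 1 (-0.192, adjusted p = 0.034), and called in the opposite direction on log2(TPM + 1) (0.347, adjusted p = 0.042). HLA-DOA differed too, by -0.70 (SE 0.142, adjusted p = 2.5e-04).

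Within libraries, the ratio of HLA-DMA to CD74 showed the same split between lines, and the ratio of HLA-DMA to CIITA did not. HLA-DMA over CIITA in OCI-Ly1 was between -2.35 and -2.31 on the log2 scale with DMSO, between -2.32 and -2.15 at 150 nM and between -4.09 and -3.74 at 500 nM. In TMD8 it was between -2.11 and -1.80 with DMSO and between -2.47 and -2.36 at 500 nM. HLA-DMA over CD74 moved down in OCI-Ly1, from a mean of -4.62 to -5.87, and up in TMD8, from -5.94 to -5.44. HLA-DMA over CIITA was thus lower at 500 nM than with DMSO in each line, while HLA-DMA over CD74 moved in opposite directions. These ratios carry no test.

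**Figure D5:**
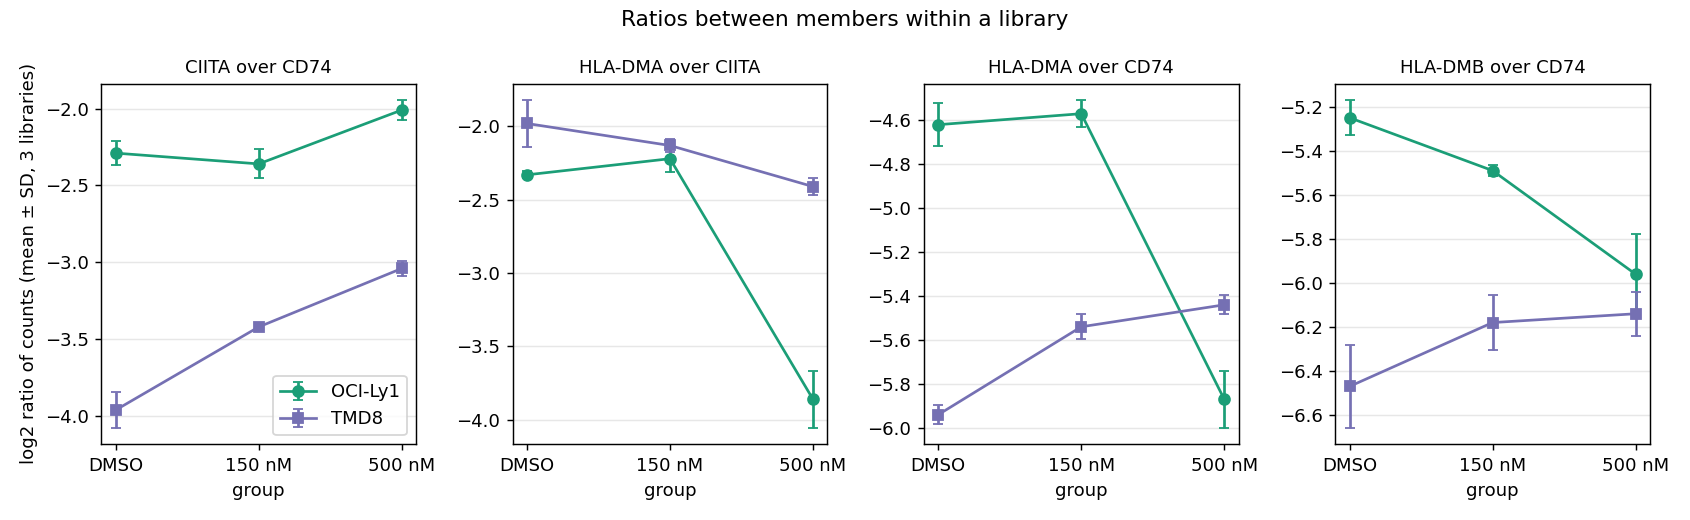
Log2 ratio of the estimated counts of 2 members in the same library (vertical axes, each with its own range; mean ± SD of 3 libraries) by dose group (horizontal axis). CIITA over CD74 is higher at 500 nM than with DMSO in both lines, while HLA-DMA over CD74 falls from -4.62 to -5.87 in OCI-Ly1 and rises from -5.94 to -5.44 in TMD8.

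The other class II genes were HLA-DRB5, HLA-DRB6, HLA-DQA2, HLA-DQB2, HLA-DOA and HLA-DOB, 6 of 8 listed symbols being in the tables. In TMD8, 3 of the 5 that passed the filter were higher at 500 nM and 0 lower, beside 29.9% and 30.7% of all genes. Their median log2 fold change was 0.22, beside 0.04 for all genes. HLA-DQA2, a near copy of HLA-DQA1, went from 19.96 to 34.3 CPM (log2 0.79, SE 0.0738, adjusted p = 4.9e-08 by edgeR). HLA-DRB5, a further DR beta chain, went from 33.6 to 47.7 CPM (log2 0.50, SE 0.099, adjusted p = 2.8e-04; 0.144 with adjusted p = 0.25 on log2(TPM + 1)). HLA-DOA went from 34.9 to 39.96 CPM (log2 0.20, SE 0.0605, adjusted p = 0.0091), but was -0.155 on log2(TPM + 1). HLA-DOB (adjusted p = 0.38) and HLA-DRB6 (0.12) were not called. Reads of HLA-DRB1, HLA-DRB5 and HLA-DRB6, and of HLA-DQA1 and HLA-DQA2, can be shared between near-identical copies, so the values of each are uncertain. In OCI-Ly1, 1 of 2 tested was lower, HLA-DOA, given above, beside 25.9% of all genes.

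The factors that bring CIITA to the X and Y boxes are compared here at 500 nM against DMSO. The difference between lines, OCI-Ly1 minus TMD8, was called positive for 4 of 7 and negative for 0, beside 46.4% of all genes called in either direction. In OCI-Ly1, 2 of 7 genes of the promoter complex were higher and 2 lower (median log2 -0.07, against -0.00 for all genes). In TMD8, 1 was higher and 4 were lower (median -0.22, against 0.04). Of all genes, 27.7% were higher and 25.9% lower in OCI-Ly1, and 29.9% and 30.7% in TMD8. RFXANK, a subunit of RFX, went from 54.8 to 99.9 CPM in OCI-Ly1 (log2 0.87, SE 0.0744, adjusted p = 2.7e-08 by edgeR), and from 36.0 to 35.8 CPM in TMD8 (adjusted p = 0.99). RFX5, the DNA-binding subunit, went from 214 to 241 CPM in OCI-Ly1 (log2 0.17, adjusted p = 0.0064), and was not called in TMD8 (log2 -0.06, adjusted p = 0.28). RFXAP, the third subunit, was higher in TMD8 (log2 0.26, adjusted p = 0.037; -0.09 on log2(TPM + 1)) and not called in OCI-Ly1 (0.62). NFYB, an NF-Y subunit, fell in both lines, by a log2 fold change of -0.20 (adjusted p = 0.029; -0.06 with adjusted p = 0.59 on log2(TPM + 1)) in OCI-Ly1 and -0.62 (adjusted p = 9.7e-07) in TMD8. NFYC (log2 -0.38) and CREB1 (log2 -0.27) were lower in TMD8. All 7 genes were transcribed in OCI-Ly1. With DMSO, 4 of 7 were higher and 3 lower there than in TMD8, beside 76.7% of all genes called in either direction and 39.0% lower. RFX5 (log2 1.13) and RFXANK (log2 0.48) were higher, and RFXAP (log2 -0.92) was lower.

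Of 5 coactivators that work with CIITA, OCI-Ly1 had 2 higher and 1 lower, and TMD8 had 2 higher and 2 lower, near the 53.6% and 60.7% of all genes called. The line difference was called positive for 4 and negative for 1, beside 46.4% of all genes called in either direction. Of those called genes 60.9% were positive. CARM1, an arginine methyltransferase, fell from 166 to 97.1 CPM in TMD8 (log2 -0.78, SE 0.0526), and KAT2B, an acetyltransferase, rose from 30.9 to 49.3 CPM there (log2 0.67, SE 0.0715). SMARCA4, a chromatin-remodelling ATPase, fell in OCI-Ly1 (log2 -0.36, SE 0.0512) and TMD8 (log2 -0.67, SE 0.0482).

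Among 16 listed regulators of CIITA transcription, OCI-Ly1 had 10 higher and 2 lower (median log2 0.29), and TMD8 had 5 higher and 6 lower (median -0.11). Over all genes 27.7% were higher and 25.9% lower in OCI-Ly1. In TMD8 these shares were 29.9% and 30.7%, and the regulators' count there is near them. The line difference was called positive for 8 of the 16 and negative for 3, beside 46.4% of all genes called in either direction. Of those called genes 60.9% were positive. IRF1, an activator of the interferon-responsive CIITA promoter, rose in both lines, with 20.6 CPM becoming 37.1 in OCI-Ly1 (log2 0.86, SE 0.0761) and 15.4 CPM becoming 32.1 in TMD8 (log2 1.04, SE 0.0946). SOCS1, a feedback inhibitor of JAK signalling, rose in OCI-Ly1 from 8.38 to 17.2 CPM (log2 1.02, SE 0.136), and in TMD8 from 24.02 to 70.1 CPM (log2 1.54, SE 0.0857). IRF4, a B-cell and plasma-cell factor, moved in opposite directions, up in OCI-Ly1 from 230 to 441 CPM (log2 0.94, SE 0.0535) and down in TMD8 from 2735 to 1735 CPM (log2 -0.66, SE 0.0583). ZBTB32, a repressor of CIITA, fell from 101 to 42.3 CPM in TMD8 (log2 -1.25, SE 0.058, adjusted p = 7.2e-12 by edgeR) and was under 1 CPM in OCI-Ly1. PRDM1, the plasma-cell repressor of CIITA, was higher in TMD8 (382 to 432 CPM, log2 0.18, adjusted p = 0.0032; -0.194 on log2(TPM + 1)). IRF8 was lower in OCI-Ly1 (log2 -0.25) and higher in TMD8 (log2 0.35; -0.0219 on log2(TPM + 1)), and SPI1 was called in neither line. JAK1 rose in OCI-Ly1 (log2 0.41) and fell in TMD8 (log2 -0.19), while JAK2 rose in OCI-Ly1 (log2 0.61).

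Of the endosomal enzymes that prepare peptides, in TMD8 2 of 8 tested were higher and 3 lower (median log2 -0.05). In OCI-Ly1 2 were higher and 5 lower (median -0.44). Over all genes 29.9% were higher and 30.7% lower in TMD8, near the counts there, and 27.7% and 25.9% in OCI-Ly1. IFI30, the lysosomal thiol reductase, fell from 256 to 118 CPM in TMD8 (log2 -1.11, SE 0.0625) and from 44.1 to 21.2 CPM in OCI-Ly1 (log2 -1.06, SE 0.083). CTSH and CTSZ, cathepsins, fell in both lines, CTSH by log2 -0.85 in OCI-Ly1 and -0.34 in TMD8, and CTSZ by log2 -0.60 and -0.51. CTSS, which cleaves the invariant chain, was lower in OCI-Ly1 (log2 -0.29, adjusted p = 7.2e-04) and higher in TMD8 (log2 0.21, adjusted p = 0.0014; -0.155 on log2(TPM + 1)). SPPL2A, which removes the remaining CD74 fragment from the membrane, was higher in OCI-Ly1 (log2 0.54) and in TMD8 (log2 0.25; -0.121 on log2(TPM + 1)). Of the surface-turnover genes, MARCH1, the ubiquitin ligase that removes class II from the surface, fell in both lines (log2 -0.50 and -0.58). CD83, which opposes it, rose from 20.5 to 42.1 CPM in OCI-Ly1 (log2 1.04, SE 0.0701).

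Class I presentation genes, listed for comparison, were 5 higher and 2 lower of 11 tested in OCI-Ly1, and 4 higher and 4 lower of 12 in TMD8, beside the shares of all genes given for the regulators, to which the TMD8 counts are near. NLRC5, the class I counterpart of CIITA, rose by a log2 fold change of 0.68 in each line, in OCI-Ly1 from 3.49 to 5.59 CPM (SE 0.156), and in TMD8 from 93.8 to 150 CPM (SE 0.0506). B2M, the class I light chain, was higher in OCI-Ly1 (log2 0.20) and lower in TMD8 (log2 -0.23). PSMB8 and PSMB9, which lie among the class II genes, fell in both lines, PSMB8 by log2 -0.72 in OCI-Ly1 and -0.52 in TMD8, and PSMB9 by log2 -0.25 and -0.67. TAP2 was lower in TMD8 (log2 -0.55). BRD2, a chromatin reader gene between HLA-DMA and HLA-DOA, was higher in OCI-Ly1 (log2 0.13, adjusted p = 0.026; -0.0377 on centred log2(TPM + 1)) and in TMD8 (log2 0.32, adjusted p = 2.8e-05; -0.187 on log2(TPM + 1)). Of the 6 neighbours of CIITA, 2 were higher and 0 lower in OCI-Ly1, and 4 were higher and 1 lower in TMD8. The shares of all genes beside them are again those given for the regulators. The 4 were DEXI (log2 0.54, adjusted p = 1.1e-05 by edgeR), TVP23A (log2 0.52), RMI2 (log2 0.29) and SOCS1, given above. On log2(TPM + 1), tested with limma, only SOCS1 of these stayed called (1.13, adjusted p = 3.9e-07). There DEXI (0.154, adjusted p = 0.24) and TVP23A (0.103, adjusted p = 0.32) were not called, and RMI2 was -0.0788.

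Among the list genes given here as changed, more calls were lost on another scale. On log2(TPM + 1) these were CTSS (adjusted p = 0.084), IRF8 (0.085), PSMB9 (0.094) and MARCH1 (0.1) in OCI-Ly1 and KAT2B (0.065) in TMD8. On its centred form they were RFX5 (0.14), NLRC5 (0.1) and B2M (0.19) in OCI-Ly1.

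The genes most like CIITA were found by Pearson's r of log2 CPM over the 18 libraries, after subtracting the mean of each line, among 9949 genes. They were FAM102A (r = 0.983), LY9 (0.982), TNFSF9 (0.981), ARRDC2 (0.979) and CCDC64 (0.979). The libraries share dose groups and depth, so these values are a description. LY9, a surface receptor of lymphocytes, went at 500 nM from 26.1 to 51.1 CPM in the OCI-Ly1 libraries, and in TMD8 from 2.49 to 20.1 CPM. CIITA had r = 0.698 with CD74, 0.355 with HLA-DMB and 0.148 with HLA-DMA. Those most like HLA-DRA were PLXNC1 (0.922), MGAT2 (0.921), ZSCAN29 (0.912), RAB39B (0.911) and NFIL3 (0.907). HLA-DRA had r = 0.386 with CIITA, -0.53 with HLA-DMB and -0.709 with HLA-DMA. Each r pools both lines, and HLA-DRA had at most 47 counts in an OCI-Ly1 library. At 500 nM HLA-DMA changed by log2 -1.24 in OCI-Ly1 and 0.66 in TMD8 on the TMM scale. On that scale HLA-DRA (2.56 and 0.22) and CIITA (0.28 and 1.09) were higher in both lines. The r with HLA-DMA therefore do not describe either line alone.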

How the data were processed

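RNA from 18 libraries was depleted of ribosomal RNA and read in paired ends of 101 cycles, per the labels' protocols. The authors deposited, for each line, estimated counts and TPM per gene. The submitters' processing notes name kallisto 0.46.0, DESeq2 1.40.2, R 4.3.1 and hg19, with no role or order. Whether counting used strand is not given in the sources used here.

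The members and lists were chosen with earlier results of these data known. Estimated counts were rounded to whole numbers and tested by edgeR 4.0.16's quasi-likelihood test (R 4.3.3; TMM scaling; filterByExpr by group; Benjamini-Hochberg adjustment over all genes tested, called at an adjusted p under 0.05), with the 9 libraries of a line in each fit and all 18 for comparisons between lines. Each SE was taken from the log2 fold change and the F statistic. TPM values, deposited by the authors, were tested as log2(TPM + 1) with limma 3.58.1, as were forms with 0.1 added or centred on the median gene. DESeq2 1.42.0, library-size scaling, no filter on low counts, a replicate block and leaving out each library were further alternatives. Fold changes on log2(TPM + 1) understate low genes.

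All 10 members are named, with 18 further genes, and from each list up to 3 more with the largest called change at 500 nM and a mean of at least 5 CPM. No symbol was matched through an alias that is another gene's current symbol, and 2 listed symbols, HLA-DRB3 and HLA-DRB4, were not matched. No replicate pair among 18 differed by as little as sampling noise (chi-square per degree of freedom 1.65 to 11.5). The edgeR step was tested on simulated data. Promoters were read from RefSeq tables (GRCh38.p14) for sequence only. A further B-cell marker of the list is not reported here.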

Additional observations from a re-analysis of the deposited data

Results flagged for a closer look

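The change against DMSO differed between the lines for the following members, by the interaction term of edgeR's quasi-likelihood test over 18 libraries, taken as OCI-Ly1 minus TMD8 on the log2 scale. At 150 nM the difference was -0.769 for CIITA (adjusted p = 7.5e-07), -0.5087 for HLA-DMA (adjusted p = 0.0055; -0.317 with adjusted p = 0.17 on log2(TPM + 1) and -0.327 with 0.19 on log2(TPM + 0.1)) and -0.6704 for HLA-DMB (adjusted p = 0.0031). At 500 nM it was -0.7781 for CIITA (adjusted p = 3.5e-08), -1.876 for HLA-DMA (adjusted p = 3.8e-11), -1.151 for HLA-DMB (adjusted p = 2.1e-06) and 2.381 for HLA-DRA (adjusted p = 5.9e-05). HLA-DRA had at most 47 counts in an OCI-Ly1 library, and 6, 4 and 3 with DMSO; it passed the filter of the OCI-Ly1 fit only through its 500 nM group. Line and medium cannot be told apart in these differences.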

How the results depend on the processing

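Over 60 results and 1095 alternatives, 643 of those that left out 1 library and 350 of the others kept the direction and side of the threshold. In TMD8 the count of members called was 5 in place of 9 for the 150 nM dose, and 3 in place of 10 for the 500 nM dose, on log2(TPM + 1) and on log2(TPM + 0.1). Of all 15363 genes, these scales called 1129 and 1204 higher at 150 nM, and 1751 and 1764 higher at 500 nM. The cause was not tested. At 500 nM against DMSO in TMD8, those 2 scales gave -0.207 and -0.207 for CD74, -0.122 and -0.132 for HLA-DPB1, -0.156 and -0.156 for HLA-DRA, and -0.07 and -0.0719 for HLA-DRB1. For 500 nM against 150 nM in TMD8 they gave -0.197 and -0.197 for CD74, -0.0955 and -0.0987 for HLA-DMA, -0.147 and -0.156 for HLA-DMB, -0.0326 and -0.0331 for HLA-DPA1, -0.174 and -0.19 for HLA-DQA1, and -0.219 and -0.219 for HLA-DRA. There the centred scale gave -0.0395 for CD74, -0.0167 for HLA-DQA1 and -0.0611 for HLA-DRA, no filter gave -0.0175, -0.0141 and -0.0392 for the same genes, and DESeq2 gave -0.0147 for HLA-DRA. CD74 at 150 nM turned to -0.00967 on both TPM scales in TMD8, and to 0.0114 and 0.0115 in OCI-Ly1. CD74 at 500 nM in OCI-Ly1 turned to -0.000115 with DESeq2, -0.00909 with no filter and -0.0857 on the centred scale, and against 150 nM to -0.0651 on the centred scale. The line difference of CD74 turned to 0.0211 on both TPM scales at 150 nM and to 0.347 at 500 nM, where it was called (adjusted p = 0.042 and 0.044).

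Leaving out 1 library in turn changed the sign only of differences that were not called. In OCI-Ly1 at 150 nM the ranges were -0.0477 to 0.0203 for CD74, -0.0258 to 0.0717 for HLA-DMA and -1.59 to 0.415 for HLA-DRA. CD74 ranged from -0.0318 to 0.0367 at 500 nM and from -0.0192 to 0.0451 between doses there. Between doses in TMD8 the ranges were -0.000396 to 0.0418 for CD74, -0.0219 to 0.0912 for HLA-DQA1 and -0.0463 to 0.0182 for HLA-DRA. The line difference of HLA-DRA at 150 nM ranged from -1.77 to 0.178.

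Of all called genes at 500 nM, 51.6% were higher in OCI-Ly1 (64.0% with library size, 71.9% on log2(TPM + 1), 32.3% centred) and 49.3% in TMD8 (59.4%, 18.8% and 48.3%). Replicate numbers did not pair the libraries uniformly. Same-numbered deviations had correlations between -0.174 and 0.428 (OCI-Ly1) or -0.111 and 0.242 (TMD8). Differently numbered ones lay between -0.477 and 0.167 or -0.268 and 0.233. Between DMSO and 150 nM in OCI-Ly1, same-numbered pairs had 0.428, 0.0865 and 0.41, and the others -0.477 to 0.119. Some pairing there is possible. With the replicate block the members called numbered 9 and 10 at 150 and 500 nM in TMD8, and 0 and 4 in OCI-Ly1, as without it. Low counts limit HLA-DRA in OCI-Ly1 and HLA-DQB1 in TMD8.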
